A study of Homo sapiens with 4 samples.

Results

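Epithelial-mesenchymal transition (EMT) is the switch by which epithelial cells loosen their junctions and take on the shape and motility of mesenchymal cells. Transcription factors of the TWIST, SNAI and ZEB families drive it by binding E-boxes in promoters, and the gene of E-cadherin is the best known of those they repress. As the cadherin at the junctions changes, mesenchymal filament proteins and smooth muscle-type actin proteins commonly accumulate. The 10 genes described here were taken by symbol and by no threshold on their values, though with earlier results of these data known: the transcription factor genes *TWIST1*, *TWIST2*, *SNAI2*, *ZEB1* and *ZEB2*, and the marker genes *CDH1*, *CDH2*, *VIM*, *ACTA2* and *TAGLN*. All 10 were listed among the 16708 genes that had a value in at least 1 library, and 9 of them, all but *CDH1*, passed the expression limit together with 11829 genes in all.

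BEAS2B is a line of human bronchial epithelial cells immortalized by virus, labelled epithelial. mRNA was measured in 2 libraries of control cells, which stably express an shRNA against luciferase (sh-Luc) from a retrovirus, and in 2 libraries of QKI-knockdown cells, which express 1 shRNA (sh-Q3) against all isoforms of QKI, an RNA-binding protein that regulates splicing. Both groups thus carry a retroviral shRNA and were grown in the same serum-supplemented medium, and with 1 shRNA its other targets and the loss of QKI cannot be told apart. The study searched these libraries for mRNA targets of QKI, in splicing and in level, and only the levels are described here. Each group has a library numbered replicate 1 and one numbered replicate 2. Whether these were separate cultures is not stated, so a p-value covers no more than the spread among the 4 libraries, possibly a technical one.

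Levels are given as RPKM, reads scaled to gene length and to the total reads of the library. Changes are differences of log2(RPKM + 0.5), QKI-knockdown minus control, a scale on which the change of a low gene comes out too small. The totals behind the RPKM, recovered from the values, were between 20052951 and 34862008 reads, the larger ones in the libraries numbered 2. *QKI* itself was at 8.94 and 14.6 RPKM in the control libraries and at 2.52 and 3.85 RPKM in the QKI-knockdown libraries, or 28.2% and 26.4% of control within replicate 1 and replicate 2. The libraries of replicate 1 and 2 differed more from each other than the groups did: over the tested genes the log2 difference had an SD of 0.812 from one control library to the other and of 0.66 for the QKI-knockdown pair. Between the groups the SD was 0.196 within replicate 1 and 0.208 within replicate 2. Changes are therefore given within each replicate number as well, and the fit was repeated with the replicate number as a block. With the block, the standard errors of limma follow a trend over genes of like level, not the agreement of 1 gene between the numbers. *VIM* (-0.51 and -0.14 within the numbers) had 0.136, and *ZEB2* (-0.34 within both) had 0.135. The p-values of that fit are to be read in the same way.

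The transcription factor and marker genes spanned over 3 orders of magnitude in level, with mesenchymal markers at the top and the epithelial marker at the bottom. *VIM*, which encodes the intermediate filament protein vimentin, had the highest mean at 537.5 RPKM over the 4 libraries, followed by *TAGLN* at 126.4 RPKM, which encodes the actin-binding protein transgelin of smooth muscle. *CDH2*, which encodes N-cadherin, the cadherin of mesenchymal and neural cells, came next at 39.0 RPKM. *VIM* was above *TAGLN* in each of the 4 libraries, although their ranges over the libraries overlapped. *TAGLN* was above *CDH2* in the libraries numbered 1 and below it in those numbered 2, so these neighbours did not differ beyond their spread. *CDH2*, between 35.4 and 41.7 RPKM, was apart from all 5 transcription factor genes.

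The factor genes were at low levels, with means over the 4 libraries of 5.83 RPKM for *ZEB2*, 4.31 for *TWIST1*, 3.59 for *ZEB1*, 3.32 for *TWIST2* and 1.99 RPKM for *SNAI2*. The ranges of neighbours in this order overlapped. *ACTA2*, which encodes smooth muscle alpha-actin, was lower still at 0.794 RPKM, and *CDH1*, which encodes E-cadherin, the cadherin of epithelial adherens junctions, was last at 0.0907 RPKM. *ACTA2* was apart from *SNAI2* above it and from *CDH1* below it. The gene lengths behind the RPKM were recovered from the values, as the shortest that give whole reads. They were between 0.696 and 2.52 times the annotated exon length of the 10 genes. The order of close levels rests on the lengths that the authors used.

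**Figure D1:**
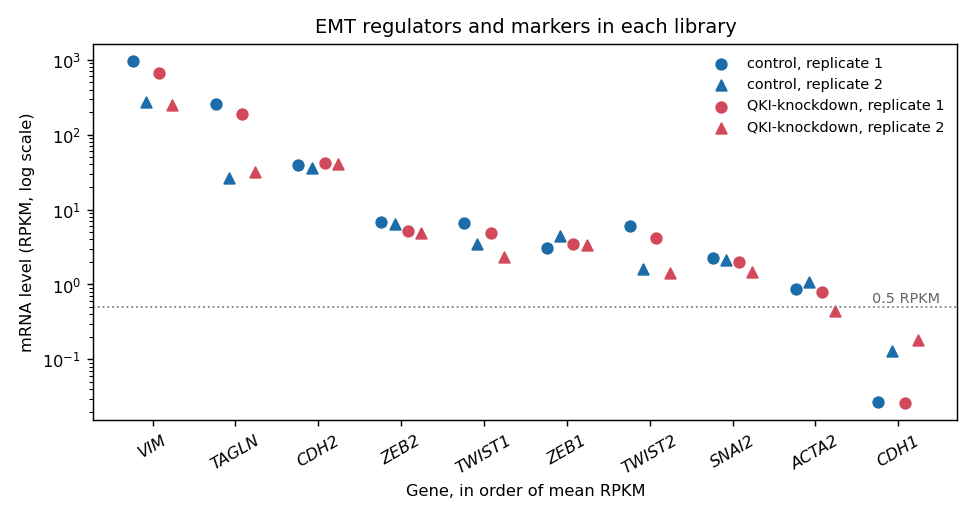
RPKM of each of the 10 EMT regulators and markers (x axis, in order of mean level; y axis, log scale) in the control libraries (blue) and the QKI-knockdown libraries (red), with replicate 1 as circles and replicate 2 as triangles. *VIM* lies between 247.1 and 958.3 RPKM and *CDH1* below the dotted line at 0.5 RPKM in every library.

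Both cadherin genes stayed on their side after knockdown. *CDH1* (chromosome 16 of hg19, 68771195 to 68869440, plus strand) was at 0.0267 and 0.129 RPKM in the control libraries and at 0.0260 and 0.181 RPKM in the QKI-knockdown libraries. These values rest on 5 and 42 reads in control cells and on 5 and 59 reads after knockdown, and the groups overlapped. *CDH1* was below the expression limit of the test. Fitted with no limit, it had a log2 difference of 0.06 (limma adjusted p = 1.00).

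*CDH2* (chromosome 18, 25512843 to 25757910, minus strand) was at 38.8 and 35.4 RPKM in control libraries 1 and 2, and at 41.7 and 40.3 RPKM in the QKI-knockdown libraries. Both knockdown libraries were above both control libraries, by a log2 difference of 0.14 (standard error 0.257 without a block and 0.115 with it), and 0.10 and 0.19 within the replicate numbers. The adjusted p was 1.00 in limma without a block and 0.999 with the replicate block. *CDH2* mRNA exceeded that of *CDH1* 1455-fold and 273.4-fold in the control libraries, and 1606-fold and 222.6-fold in the QKI-knockdown libraries, so in this ratio of RPKM the replicate numbers lay further apart than the groups.

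*VIM* (chromosome 10, 17270240 to 17279592, plus strand) was at 958.3 and 273.1 RPKM in control libraries 1 and 2, and at 671.4 and 247.1 RPKM in QKI-knockdown libraries 1 and 2. Within each replicate number the knockdown library was the lower one, at 70.1% of control in replicate 1 and 90.5% in replicate 2. Across the numbers the groups overlapped widely, and the log2 difference of -0.33 (standard error 0.87 without a block) did not pass limma (adjusted p = 1.00 without a block, adjusted p = 0.466 with the replicate block). Its mean level was above that of 99.9% of the tested genes.

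Of the factor genes, *TWIST1* gave the lowest log2 difference and one that was alike within both replicate numbers. *TWIST1* (chromosome 7, 19060614 to 19157259, minus strand), which encodes a basic helix-loop-helix factor, was at 6.56 and 3.42 RPKM in the control libraries and at 4.91 and 2.36 RPKM in the QKI-knockdown libraries. The knockdown library was at 74.7% of control in replicate 1 and at 68.9% in replicate 2, a log2 difference of -0.39 and -0.46. The mean of -0.42 was lower than that of all but 0.812% of the tested genes. The groups overlapped across the numbers, because both libraries numbered 2 were low. Limma gave an adjusted p of 1.00 without a block (standard error 0.49) and 0.167 with the replicate block (standard error 0.141).

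*TWIST2* (chromosome 2, 239756673 to 239832230, plus strand), its close paralog, was at 6.11 and 1.62 RPKM in the control libraries and at 4.13 and 1.44 RPKM in the QKI-knockdown libraries. These stand for 144, 66, 100 and 59 reads. The knockdown library was again the lower one within each number, at 67.7% and 89.0% of control, and the mean log2 difference of -0.32 had an adjusted p of 0.651 in limma with the replicate block. *TWIST1* mRNA was 1.07-fold that of *TWIST2* in control library 1 and 1.19-fold in QKI-knockdown library 1, but 2.12-fold and 1.64-fold in the libraries numbered 2.

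*SNAI2* (chromosome 8, 49830157 to 49834299, minus strand) encodes the zinc finger repressor also known as Slug. Its level was 2.28 and 2.15 RPKM in the control libraries and 2.02 and 1.49 RPKM in the QKI-knockdown libraries, so both knockdown libraries were below both control libraries. The log2 difference was -0.14 within replicate 1 and -0.41 within replicate 2, with a mean of -0.28 (limma adjusted p = 1.00 without a block, adjusted p = 0.907 with the replicate block). Its relatives were lower in level: *SNAI1* was between 0.889 and 1.45 RPKM with log2 differences of -0.16 and 0.22 within the numbers, and *SNAI3* did not reach 0.5 RPKM in any library.

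*ZEB2* (chromosome 2, 145121931 to 145278624, minus strand) and *ZEB1* (chromosome 10, 31607424 to 31818742, plus strand) encode zinc finger and homeodomain repressors that bind paired E-boxes. *ZEB2* was at 6.77 and 6.37 RPKM in the control libraries and at 5.25 and 4.92 RPKM in the QKI-knockdown libraries, with the groups apart. It was at 77.6% and 77.3% of control within the replicate numbers, the closest match between the numbers among the 5 factor genes. The log2 difference was -0.34 in both (mean -0.34, standard error 0.25 without a block and 0.135 with it). It did not pass limma (adjusted p = 1.00 without a block, adjusted p = 0.393 with the replicate block), with 11829 genes tested at once.

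*ZEB1* gave no such difference. It was at 3.09 and 4.44 RPKM in the control libraries and at 3.50 and 3.34 RPKM in the QKI-knockdown libraries. The knockdown library was at 113.4% of control in replicate 1 and at 75.2% in replicate 2, so the direction differed between the numbers, and the mean log2 difference was -0.10 (limma adjusted p = 1.00 without a block, adjusted p = 0.999 with the replicate block). *ZEB2* mRNA was 2.19-fold that of *ZEB1* in control library 1, and between 1.43-fold and 1.5-fold in the other 3 libraries.

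The promoters of *ZEB1* and *ACTA2* are shown to set the binding sites in question beside the levels. RefSeq promoter windows on GRCh38.p14, a later build than the hg19 of the levels, run from 250 bases before to 50 bases after a start. Those of 6 of the 10 genes were searched (*TWIST2*, *ZEB1*, *ZEB2*, *VIM*, *CDH2* and *ACTA2*). *SNAI2* was left out of the search, and no window was found for *TWIST1*, *CDH1* and *TAGLN*. The E-box bound by SNAI and ZEB factors was searched as CACCTG, or CAGGTG when read on the other strand. It was in 20.6% of all 35116 windows. Among these 6 genes *ZEB1* alone had it, in 2 of its 7 windows. The 250 bases before the start of the *ZEB1* window with the most matches (chr10:31318966-31319215, plus strand) hold 2, in capitals:
ZEB1: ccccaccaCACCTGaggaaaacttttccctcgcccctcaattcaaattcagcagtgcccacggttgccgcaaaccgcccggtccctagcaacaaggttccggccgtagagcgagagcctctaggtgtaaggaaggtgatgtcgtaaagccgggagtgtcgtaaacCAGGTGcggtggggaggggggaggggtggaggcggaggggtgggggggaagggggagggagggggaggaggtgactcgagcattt
The CArG box, the site of serum response factor in smooth muscle genes, was searched on both strands with at most 1 mismatch in its A and T bases, which 8.13% of all windows hold. Of the same 6 genes only *ACTA2* had it, in 1 of its 2 windows (chr10:88952774-88953023, minus strand), with 2 matches, in capitals, that begin 121 and 71 bases before the start:
ACTA2: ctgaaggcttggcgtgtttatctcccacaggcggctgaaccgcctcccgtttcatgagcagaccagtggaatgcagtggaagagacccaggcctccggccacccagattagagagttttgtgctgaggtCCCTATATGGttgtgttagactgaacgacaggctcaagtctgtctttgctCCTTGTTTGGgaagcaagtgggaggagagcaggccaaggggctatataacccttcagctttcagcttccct
A match is a stretch of letters and not a measured site.

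*ACTA2* (chromosome 10, 90694831 to 90751096, minus strand) was at 0.872 and 1.08 RPKM in the control libraries and at 0.786 and 0.439 RPKM in the QKI-knockdown libraries. The groups were apart, but the distance came mostly from replicate 2. There the knockdown library was at 40.8% of control (70 against 171 reads), against 90.2% in replicate 1 (74 against 80 reads). The log2 difference of -0.42 (-0.09 and -0.75 within the numbers) had an adjusted p of 0.357 in limma with the replicate block. It was -0.77 in voom with the block, and -0.19 without QKI-knockdown replicate 2. The gene overlaps *STAMBPL1* and *FAS* on the other strand, which were at 0.942 to 1.52 RPKM and at 0.295 to 1.72 RPKM. The sources do not state whether counting used strand, so reads of *ACTA2* and of these genes may not be separable. The authors left out ambiguously aligned reads, and reads common to several actin genes may be among them.

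*TAGLN* (chromosome 11, 117070086 to 117078180, plus strand) had the widest range of the 10 genes, 9.64-fold from its lowest to its highest library. It was at 257.4 and 26.7 RPKM in the control libraries and at 189.4 and 32.0 RPKM in the QKI-knockdown libraries. The knockdown library was the lower one in replicate 1, at 73.6% of control, and the higher one in replicate 2, at 120.0%. The mean log2 difference of -0.09 had an adjusted p of 0.999 in limma with the replicate block. *PCSK7*, on the other strand, overlaps 3128 bases of *TAGLN* and was between 3.35 and 11.9 RPKM.

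No EMT regulator or marker passed the test over all genes. Limma without a block made 0 calls among the 9, as it called 0% of all tested genes, and 0 had an unadjusted p under 0.05 (0.11% of all tested genes, and 0.0761% in the lower direction). *QKI*, at 28.2% and 26.4% of control, was not called by this fit either, so 0 calls in it cannot show that a gene kept its level. With the replicate block limma called 0 again, against 0.854% of all tested genes (0.49% higher and 0.364% lower). At an unadjusted p under 0.05, which the block gave for 6.15% of the tested genes and in the lower direction for 2.71%, there were 5 of the 9, all lower: *TWIST1*, *ACTA2*, *ZEB2*, *VIM* and *TWIST2*. With median centring added to the block the calls stayed at 0, against 0.964% of all tested genes (0.406% higher and 0.558% lower), and 6 of the 9, all lower, had an unadjusted p under 0.05 (6.04% of the tested genes, and 3.73% in the lower direction). Voom of limma on the recovered reads called 0 without the block (0% of all tested genes), with 0 at an unadjusted p under 0.05 (0.118%, and 0.0761% in the lower direction). With the block voom again called 0 (1.16% of all tested genes, 0.583% higher and 0.575% lower), with 4 at an unadjusted p under 0.05, all lower (6.47%, and 3.18% in the lower direction).

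Counted by libraries, both knockdown libraries were below both control libraries for 3 of the 9 (*SNAI2*, *ZEB2* and *ACTA2*), as for 2.89% of the tested genes, and above both for 1 (*CDH2*), as for 5.71%. Lower within both replicate numbers were 6 of the 9, against 16.6% of the tested genes, and higher within both was 1, *CDH2*, against 31.7%. The median log2 difference of the 9 was -0.32 (-0.34 within replicate 1 and -0.34 within replicate 2), beside 0.03 over all tested genes.

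**Figure D2:**
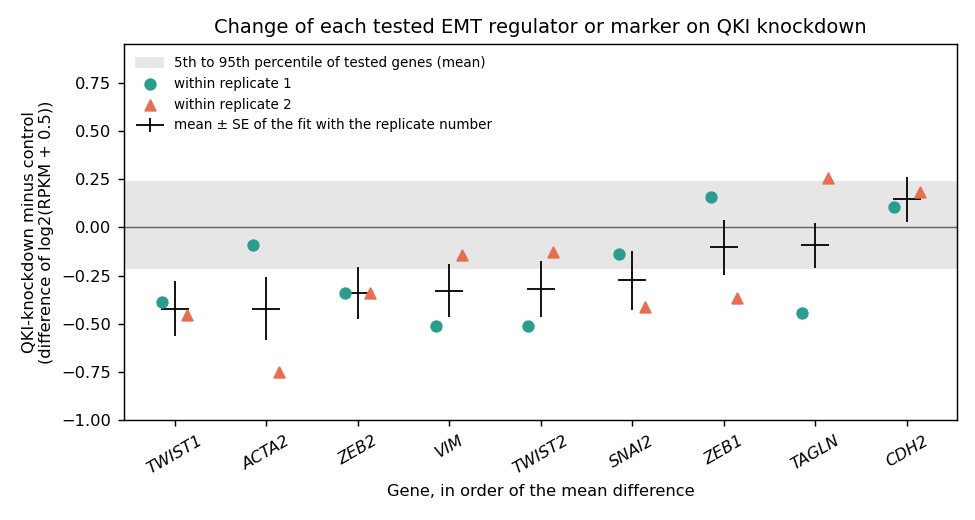
Difference of log2(RPKM + 0.5), QKI-knockdown minus control (y axis), for the 9 tested EMT regulators and markers (x axis), within replicate 1 (circles) and replicate 2 (triangles), with the mean and the standard error of the fit with the replicate block (bars). The bars follow a trend over genes of like level, not the distance between the points of a gene. The grey band holds the mean differences of the tested genes from the 5th to the 95th percentile, -0.21 to 0.24. *TWIST1* and *ZEB2* lie below it within both numbers.

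For 4 of these genes the log2 difference between the replicate numbers, in both groups, was larger than that between the groups. *TAGLN* was 9.65-fold higher in control library 1 than in control library 2, and 5.91-fold higher in QKI-knockdown library 1 than in library 2. The log2 difference between the numbers was lower in only 0.0507% of the tested genes. *VIM* was 3.51-fold and 2.72-fold higher in the libraries numbered 1, *TWIST2* 3.78-fold and 2.87-fold, and *TWIST1* 1.92-fold and 2.08-fold. *CDH2* and *ZEB2*, by contrast, differed at most 1.1-fold between the numbers of a group. Over 2-fold lower in replicate 2 in both groups, on the log2(RPKM + 0.5) scale, were *TAGLN*, *VIM* and *TWIST2*, 3 of the 9, against 6.33% of the tested genes, and over 2-fold higher were 0, against 4.74%.

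Of the relatives of *ACTA2* and *TAGLN*, *ACTB*, *ACTG1*, *ACTG2* and *TAGLN2* were higher in control library 1 than in control library 2, as *TAGLN* was. *TAGLN3* lay the other way at a very low level (0.039 and 0.108 RPKM), and so did *ACTA2* itself (0.872 and 1.08 RPKM). *ACTG2* was also low, at 0.381 and 0.00537 RPKM. *ACTB* and *ACTG1*, which encode the cytoplasmic actins, were at 2689 and 2652 RPKM in control library 1 and at 920.9 and 881.7 RPKM in control library 2, and *TAGLN2*, a relative of *TAGLN*, was at 313.5 and 118.2 RPKM. The authors ran the sequencing 2 times, once at each of 2 read lengths, and no source ties a length to a replicate number. The part of read length was not tested. Leaving out a single library unbalances the numbers, and the mean log2 difference then followed the number: without control replicate 1 it was 1.53 for *TAGLN*, 0.58 for *VIM* and 0.50 for *TWIST2*, and without QKI-knockdown replicate 2 it was 1.18, 0.39 and 0.31. *TWIST1* was then near 0, at 0.0029 and 0.038, and *ZEB1* was at 0.13 without control replicate 2.

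**Figure D3:**
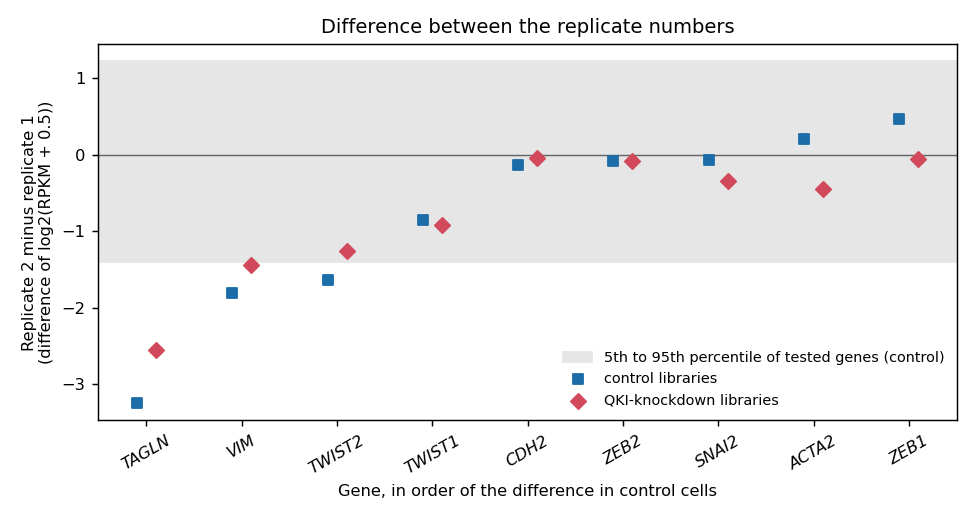
Difference of log2(RPKM + 0.5) between replicate 2 and replicate 1 (y axis) for the 9 tested EMT regulators and markers (x axis), in control libraries (squares) and QKI-knockdown libraries (diamonds). The grey band spans the 5th to the 95th percentile of the tested genes in control cells, -1.40 to 1.22; *TAGLN* lies at -3.25 and -2.55.

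The other genes of the EMT programme were counted from lists that include the genes above. Of 21 EMT transcription factor genes 17 were tested, and limma called 0, without or with the replicate block. Their median log2 difference was -0.19, beside 0.03 over all tested genes. Below 0 were 14 of the 17, against 4495 of all 11829 tested genes, and 5 of the 17 are the factor genes described above. *HMGA2*, which encodes an architectural chromatin protein, was at 1.20 and 0.776 RPKM in the control libraries and at 0.831 and 0.443 RPKM after knockdown, a log2 difference of -0.40 (limma adjusted p = 0.443 with the replicate block). Voom with the replicate block called it lower (adjusted p = 0.0235). *FOSL1*, which encodes an AP-1 subunit, had a log2 difference of -0.27, and *TCF4*, which encodes an E protein that pairs with TWIST factors, one of -0.22. Neither passed limma with the replicate block (adjusted p = 0.509 and 0.999).

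Of 21 partners and co-repressors of these factors 20 were tested, with a median of 0.01, and limma called 0 without a block and 0 with it. *ID1* and *ID2*, which encode inhibitors that take up E proteins, had log2 differences of -0.38 and -0.39 (limma adjusted p = 0.0965 and 0.388 with the replicate block). With median centring as well, *ID1* was called lower (limma adjusted p = 0.0476), while its adjusted p was 0.354 in voom with the block. *HDAC1*, which encodes a histone deacetylase, had a log2 difference of 0.12 (limma adjusted p = 0.999 with the replicate block).

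Among epithelial genes 2 passed the test with the replicate block, both higher after knockdown. *CXADR*, which encodes a tight junction receptor also used by viruses, was at 1.19 and 3.37 RPKM in the control libraries and at 1.84 and 6.01 RPKM in the QKI-knockdown libraries, a log2 difference of 0.61 (0.47 and 0.75 within the numbers; limma adjusted p = 1.00 without a block, adjusted p = 0.0073 with the replicate block). *PARD6B*, which encodes a cell polarity adaptor, was at 1.26 and 5.73 RPKM in control cells and at 1.65 and 10.9 RPKM after knockdown, a log2 difference of 0.58 (0.29 and 0.87; adjusted p = 1.00 and 0.00893). They were the 2 calls among 17 tested of 25 junction and polarity genes, whose median was 0.05. Of all tested genes, limma with the replicate block called 0.854% (0.49% higher).

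Of 19 epithelial regulator genes only 6 were tested, and limma called 0 without a block and 0 with it. *SPINT1*, which encodes a protease inhibitor of epithelial surfaces, had a log2 difference of -0.48 (limma adjusted p = 0.0825 with the replicate block, and 0.043, a call, with median centring as well). *ELF3*, which encodes an epithelial ETS factor, was at 0.33 (adjusted p = 0.527) and *KLF5*, which encodes a Krüppel-like factor, at -0.19 (adjusted p = 0.999).

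Of 28 mesenchymal marker genes 23 were tested, with a median of 0.00 and no call by limma. Below 0 were 12 of the 23 and above it 11, against 4495 and 7334 of all 11829 tested genes. The median was 0.21 without control replicate 1 and -0.22 without control replicate 2. *FN1*, which encodes fibronectin, was at 242.0 and 169.3 RPKM in control cells and at 298.9 and 210.0 RPKM after knockdown, a log2 difference of 0.31, and *COL1A1*, which encodes a chain of type I collagen, one of 0.36. *LOX*, which encodes a collagen cross-linking enzyme, was at -0.23. None of these passed with the replicate block (limma adjusted p = 0.442, 0.127 and 0.838).

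Smooth muscle and SRF target genes, the list that holds *ACTA2* and *TAGLN*, had a median of -0.08 over 23 tested of 27, with no call. Below 0 were 18 of the 23, against 4495 of all 11829 tested genes. Without control replicate 1 the median was 0.49, and without control replicate 2 it was -0.49. Within replicate 1 the median was -0.17 and within replicate 2 it was 0.03. *LMOD1*, which encodes an actin filament nucleator, was at -0.30, *SMTN*, which encodes smoothelin, at -0.21, and *TPM2*, which encodes a tropomyosin, at 0.19 (limma adjusted p = 0.82, 0.999 and 0.999 with the replicate block).

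Of 26 cadherin and catenin genes 11 were tested and none called, with a median of 0.03. *CDH3*, which encodes P-cadherin, was at 0.20 and *CDH4*, which encodes R-cadherin, at 0.07, and *CDH11*, a mesenchymal cadherin gene, had a value in 1 library only, at 0.012 RPKM. Of 13 intermediate filament genes 5 were tested and none called. Of these 5, *VIM*, *SYNM* (0.10) and *LMNB1* (0.04) had the same sign within both numbers. The untested *NES* and *DES* stayed below 0.5 RPKM.

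**Figure D4:**
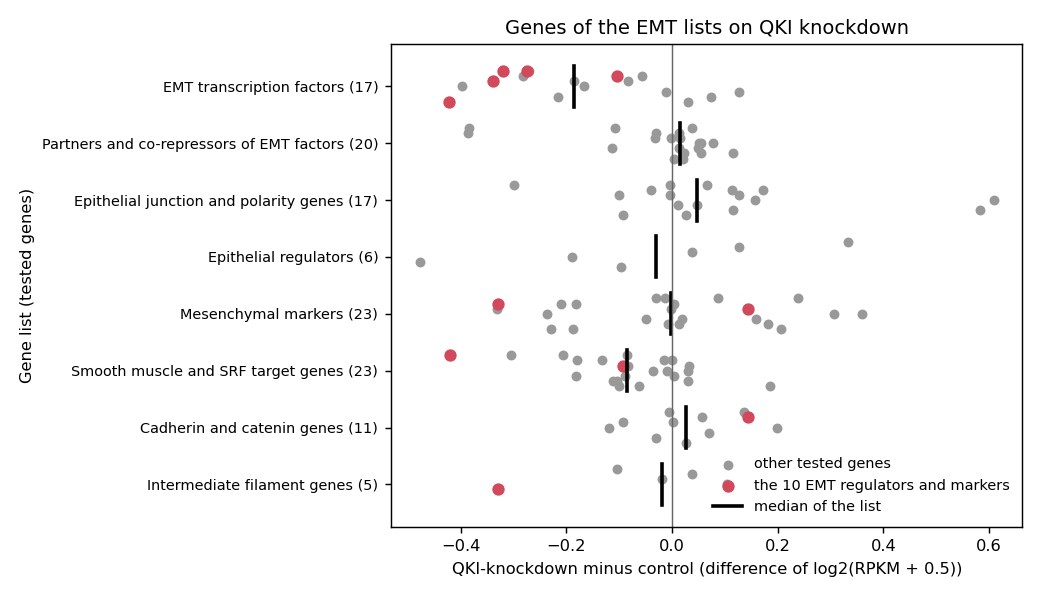
Mean difference of log2(RPKM + 0.5), QKI-knockdown minus control (x axis), for the tested genes of 8 EMT lists (y axis, number of tested genes in brackets). Red points are the EMT regulators and markers described above and black bars are list medians; the 2 points beyond 0.5 are *PARD6B* and *CXADR*.

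The label of the cells was set against marker genes. Of 5 bronchial epithelial markers, the keratin genes *KRT8* (91.5 to 248.3 RPKM) and *KRT18* (102.8 to 188.8 RPKM) were abundant, *EPCAM* was between 0.619 and 0.811 RPKM, and *KRT19* and *CDH1* had means below 0.5 RPKM. The 5 markers summed to 195.2 to 419.0 RPKM in control and 230.8 to 416.8 RPKM in QKI-knockdown libraries. Of the defining markers of other cell types, 0 of 5 basal, 0 of 5 ciliated or secretory and 0 of 5 endothelial markers reached a mean of 0.5 RPKM. Of 5 leukocyte markers *CD14* did, at 0.794 to 5.22 RPKM, while *PTPRC* was at most 0.00509 RPKM. Of 6 smooth muscle markers *LMOD1* and *CNN1* did. All 6 summed to 3.16 to 4.74 RPKM in control and 2.47 to 3.07 RPKM in QKI-knockdown libraries, and *DES* had no value in 2 libraries. Of 8 fibroblast markers 3 did (*PDGFRB*, *COL1A1* and *THY1*). All 8 summed to 102.1 to 143.9 RPKM in control and 125.3 to 134.4 RPKM in QKI-knockdown libraries, while *DCN* had no value and *PDGFRA* was at most 0.00735 RPKM. In bulk samples, fewer cells of a type and less RNA per cell cannot be told apart.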

How the data were processed

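RNA-Seq data of 4 BEAS2B libraries were used. Per the labels, TruSeq RNA libraries were made from total RNA. The authors sequenced single-end reads of 50 or 75 nt, aligned them to hg19 and splice junctions with Bowtie (its version is not stated) at no more than 3 mismatches, left out ambiguous reads, and deposited RPKM per gene. A gene without a value was given 0. Whole reads were recovered for 100% of the values (relative tolerance 1e-11), as the smallest numbers that fit, with the totals and gene lengths inferred as well. They sum to 1.35 to 1.53 times the library totals, so a read may be counted more than once, and no counting interval is given. limma 3.58.1 (R 4.3.3, mean-variance trend, two-sided, Benjamini-Hochberg, adjusted p under 0.05) was applied to log2(RPKM + 0.5) of genes whose mean RPKM reached 0.5. It was tested on simulated data, with a fixed spread that was not estimated from these libraries. Alternatives were pseudocounts, expression limits, median centring, the replicate block, voom and leaving out a library. Named genes were the 10 genes, *QKI*, close relatives and, per list, genes called and the 3 largest differences of one sign in both numbers. A gene that this rule names is not reported here. Overlapping genes are named for what they overlap. Members and lists were chosen with earlier results of these data known. Gene positions come from GENCODE on hg19. Python 3.11.15 was used.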

Additional observations from a re-analysis of the deposited data

How the results depend on the processing

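Without a known pairing, the replicate number was used as a batch term: differences between the numbers were alike in both groups (Pearson r = 0.953 over genes, which are no independent replicates). Higher and lower calls over all genes numbered 58 and 43 in limma with the replicate block, 48 and 66 when median centring was added, and 69 and 68 in voom with the block, against 0 and 0 without a block by limma or voom. *QKI* was called in these 3 fits, at log2 differences of -1.72, -1.75 and -1.88, and not without a block. Junction and polarity genes had 2 higher calls in each of the 3 fits with the block and 0 without it. The block with median centring added 1 lower call among partners and co-repressors (*ID1*) and 1 among epithelial regulators (*SPINT1*), and voom with the block 1 among EMT transcription factors (*HMGA2*). Leaving out 1 library gave 0 to 2 higher and 0 to 1 lower calls over all genes. The other pseudocounts, expression limits and centring without a block changed no call.

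The 10 EMT regulators and markers had 0 calls in every fit run. With all 4 libraries none reversed, and the lowest adjusted p was 0.0938, for *TWIST1* with the block and median centring (log2 differences of -0.48 to -0.38 over the fits). *ACTA2* moved from -0.42 to -0.77 with voom and the block, and could not be fitted at a limit of 1 RPKM. With 1 library left out, log2 differences ran from -0.88 to 0.038 for *TWIST1*, from -1.14 to 0.50 for *TWIST2*, from -1.23 to 0.58 for *VIM*, from -1.71 to 1.53 for *TAGLN* and from -0.33 to 0.13 for *ZEB1*. The sign reversed for *ZEB1* without control replicate 2, and for the others without control replicate 1 (*TWIST1* 0.0029) and without QKI-knockdown replicate 2 (0.31 for *TWIST2*, 0.39 for *VIM*, 1.18 for *TAGLN*). *ACTA2* ran from -0.65 to -0.19 and *SNAI2* from -0.45 to -0.10, with no reversal. List medians ran from -0.38 to 0.22 for EMT transcription factors, from -0.49 to 0.49 for smooth muscle genes, from -0.22 to 0.21 for mesenchymal markers, from -0.49 to 0.47 for intermediate filament genes and from -0.06 to 0.26 for junction genes. These fits compare unlike replicate numbers and assume that the lone library varies like the other group. *CDH1* could be fitted with no expression limit alone, at 0.06. Low read numbers limit *CDH1*, *ACTA2* and *TWIST2* most.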

Other observations

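The difference between the replicate numbers went through the EMT lists unevenly. Smooth muscle and SRF target genes had a median log2 difference between replicate 2 and replicate 1 of -0.98 in the control pair and -0.78 in the knockdown pair, beside 0.00 and 0.00 over all tested genes. Over 2-fold lower in replicate 2 in both groups were 9 of the 23 tested (39.1%, against 6.33% of all tested genes), and 0 were over 2-fold higher (against 4.74%). The 9 include *TAGLN*, described above. *CNN1*, which encodes the actin-binding protein calponin, was at 2.25 and 1.35 RPKM in control and QKI-knockdown library 1, and at 0.123 and 0.326 RPKM in the libraries numbered 2. *CNN1* was chosen after its values were seen.

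Junction and polarity genes lay the other way, with medians of 0.47 and 0.27, and 5 of the 17 tested (29.4%, against 4.74% of all tested genes) over 2-fold higher in replicate 2 in both groups. *ELF3*, of the epithelial regulators, was at 1.20 and 1.65 RPKM in the libraries numbered 1 and at 8.23 and 10.4 RPKM in those numbered 2. *CXADR* and *PARD6B*, the called genes of the junction list, were also higher in the libraries numbered 2, in both groups. What the replicate numbers stand for was not tested.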
